A study of Rattus norvegicus with 24 samples.

Results

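The genes that encode the subunits of the AMPA and kainate receptors, Gria1 to Gria4 and Grik1 to Grik5, were described in the nucleus accumbens (NAc) of adult male Sprague Dawley rats. The 9 genes were found by name among the 32545 genes of the RNA-seq table, each name matched 1 gene, and all 9 passed the filter on low values in every comparison. RNA-seq gave 24 libraries, 4 from each of 6 groups, and values are in FPKM, fragments scaled by gene length and by library size, so that levels can be set side by side between genes of different length.

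In the injection experiment, rats that arrived at 8 weeks of age received 5 intraperitoneal injections of saline or of 250 µg/kg lipopolysaccharide (LPS), a bacterial product that activates the immune system, spread over a fortnight. After a drug-free interval they received heroin, rising from 1 to 5 mg/kg, or saline by the same route for 5 days and were euthanized 1 h after the last injection. Per the paper, all of them were placed briefly in a chamber that recorded locomotion between that injection and death. The 4 groups are named by pretreatment and then treatment: LPS-Heroin, LPS-Saline, Saline-Heroin and, with neither agent, Saline-Saline. In the self-administration (SA) experiment, rats of the same sex, strain and age at arrival had a jugular catheter fitted, pressed a lever for intravenous saline (Saline-SA) or heroin (Heroin-SA, 0.075 mg/kg per infusion) for 6 h a day in 10 daily sessions, and were euthanized directly after the last session. The SA rats were housed singly on a reversed light cycle, the injected rats in pairs on a normal one, and no SA rat received LPS. The tissue held core and shell of the NAc together, so fewer cells of a type and less RNA per cell cannot be told apart.

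AMPA and kainate receptors are glutamate-gated cation channels, each built from a set of subunits that assemble around a central pore. AMPA receptors carry most of the fast excitatory current at synapses, while kainate receptors act both at synapses and on transmitter release. In the NAc, glutamate inputs from cortex, amygdala, hippocampus and thalamus end largely on the medium spiny neurons, and the AMPA receptors of these synapses have been studied widely in models of drug exposure. A feature of general importance is GluA2, the product of Gria2, whose edited form keeps calcium out of the channel.

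The libraries held 12312878 to 18850240 reads on genes. Markers of medium spiny neurons were present throughout: Ppp1r1b, which encodes DARPP-32, had group means from 690.6 to 1097 FPKM, and the D1 receptor gene Drd1 from 58.8 to 82.6 FPKM. The summed FPKM of the 9 measured cortical glutamatergic markers ran from 108 to 910.4 across libraries, and that of 9 markers of septum and ventral forebrain from 29.4 to 151. Choroid plexus markers summed to 336 FPKM in Saline-Saline replicate 1 and to 1.74 to 33.5 FPKM in the other libraries. The mitochondrial share of reads was higher in the SA experiment, at 10.0 to 15.9%, than in the injection experiment, at 6.8 to 9.1%.

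Gria2 was the most abundant of the 9 transcripts, with a mean of 119.6 FPKM over all libraries. Means over all libraries were 65.4 FPKM for Grik5, 60.2 for Gria1 and 51.2 for Gria3. Grik2 had 23.1 FPKM, Gria4 16.8, Grik4 11.5, Grik3 9.66 and Grik1, the scarcest, 4.09. In every library Gria3 was above Grik2 and Grik3 above Grik1. Gria2 exceeded Grik5 in 23 of 24 libraries, whereas the order of Grik5 and Gria1 depended on the experiment. In the injection experiment Gria1 averaged 64.3 FPKM and Grik5 58.3 FPKM, and Gria1 was the higher in 13 of 16 libraries. In the SA experiment Grik5 averaged 79.6 FPKM and Gria1 52.0 FPKM, Grik5 was the higher in 8 of 8 libraries, and the ranges were apart in both groups. Grik4 exceeded Grik3 in 17 of 24 libraries, and these neighbours overlapped in 4 of 6 groups. The order rests on the gene lengths used for FPKM, which ran from 2976 bases for Gria1 to 6854 bases for Gria2.

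**Figure D1:**
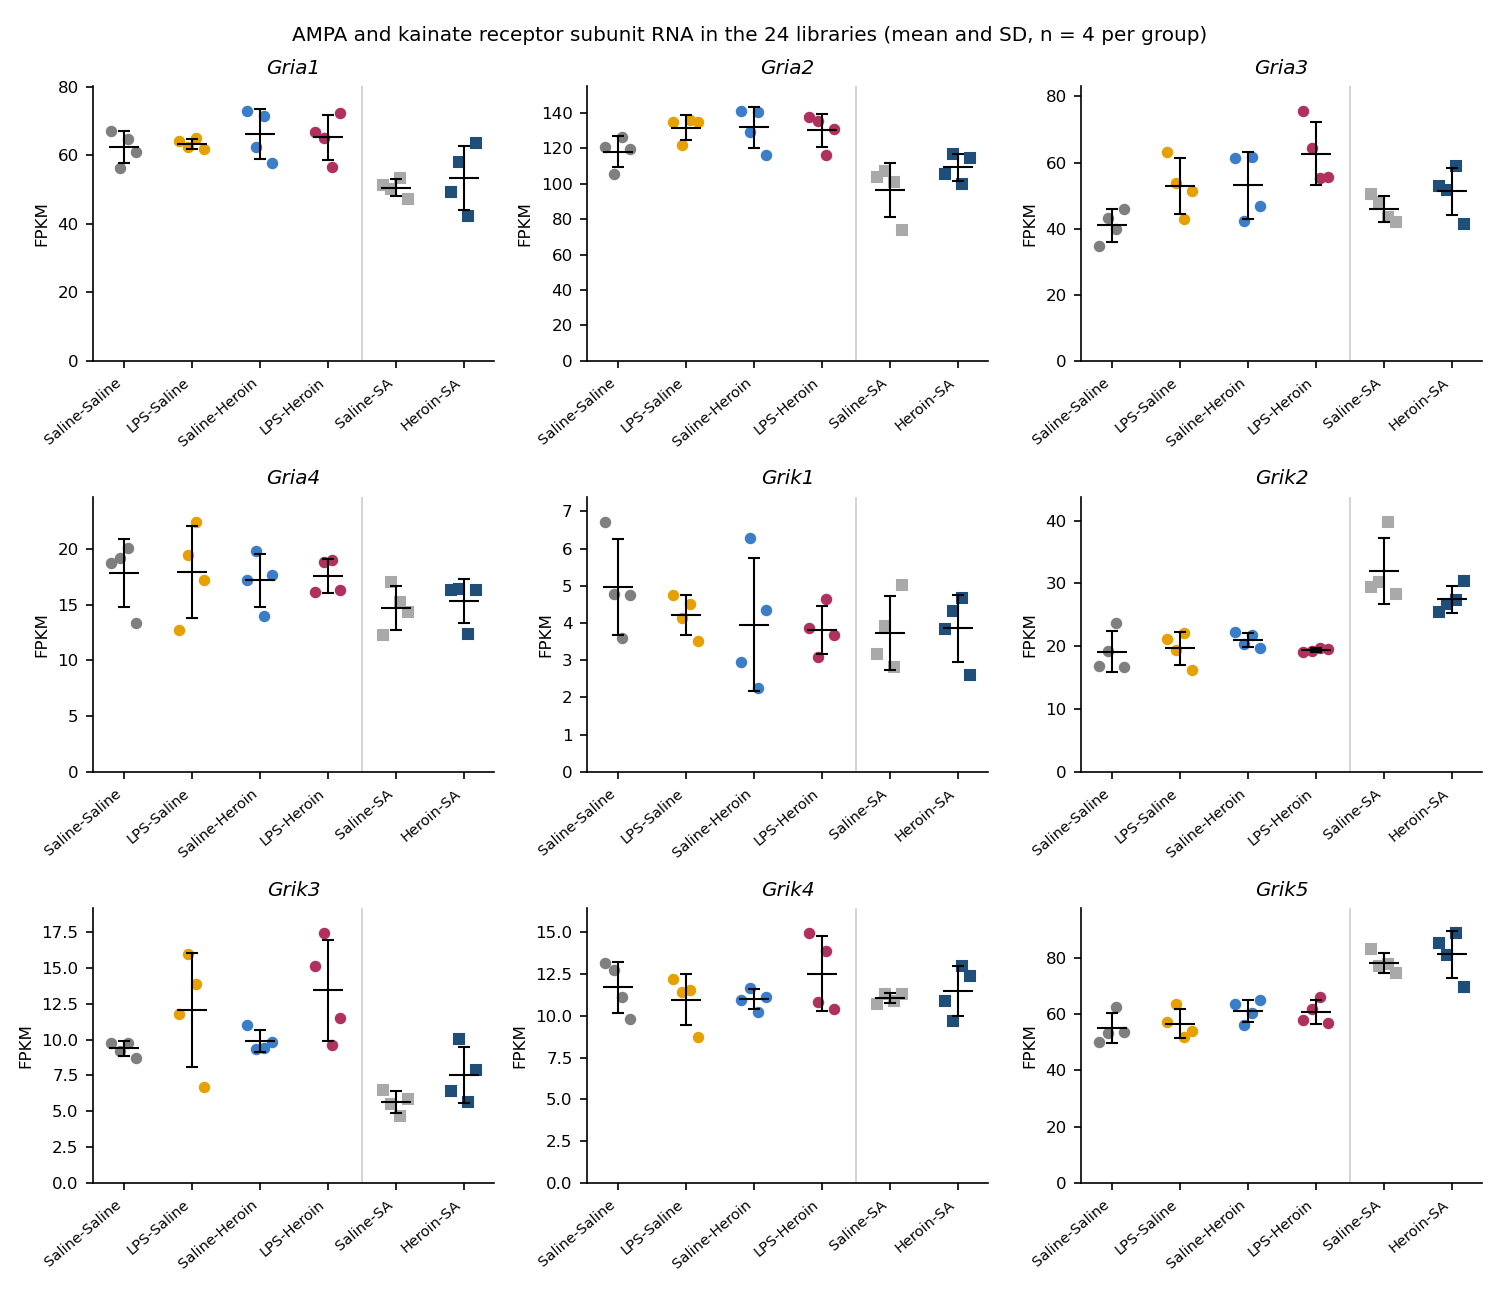
FPKM of the 9 subunit genes (y axis, from 0) in each library, by group (x axis); points are libraries, bars the group mean and SD of 4, and the vertical line separates the injection (circles) and SA (squares) experiments. Gria3 was lowest in Saline-Saline, at 41.0 FPKM, and highest in LPS-Heroin, at 62.7 FPKM. All 8 SA libraries lay above all 16 injection libraries for Grik2 and Grik5, and the share of all genes so separated was not computed.

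The 4 AMPA subunit genes lie on separate chromosomes of the rn6 build. Gria1 (GluA1, a subunit whose delivery to synapses depends on activity) spans chr10:42614713-42760200 on the plus strand, and Gria2 chr2:179584308-179704629 on the minus strand. Gria3 (GluA3) spans chrX:127562660-127829753 on the plus strand, and Gria4 (GluA4, a subunit prominent in several interneuron types) chr8:1548146-2045817 on the minus strand. A microRNA gene lies on the same strand within the span of Gria2, Gria3 and Gria4. The coefficient of variation within a group ran from 5.15 to 15.7% for Gria2, 2.39 to 17.5% for Gria1, 8.52 to 18.9% for Gria3 and 8.78 to 22.9% for Gria4.

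Of the kainate subunits, Grik1, Grik2 and Grik3 encode GluK1, GluK2 and GluK3, which can form channels alone, and Grik4 and Grik5 encode GluK4 and GluK5, which need a partner from the first set. Grik1 spans chr11:27811957-27971359 on the minus strand, Grik2 chr20:53789760-54517709 on the minus strand and Grik3 chr5:143500441-143715546 on the plus strand. Grik4 spans chr8:46806147-47094352 and Grik5 chr1:81885521-81946714, both on the minus strand. Grik4 overlaps an RNA listed separately at its 3′ end on the same strand and a protein-coding gene on the opposite strand, and Grik2 a pseudogene on the opposite strand; whether reads were counted by strand is not given in the sources used here, so the values of Grik4 and Grik2 are uncertain to that extent. Grik1 rested on 105 to 334 reads a library and had coefficients of variation from 12.8 to 45.2%.

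Shares of the summed AMPA subunit FPKM show the subunits against each other within a library. Gria2 made up 49.3 ± 1.54% (SD, n = 4) of the sum in Saline-Saline and 47.2 ± 0.573% in LPS-Heroin, with 49.5 ± 1.78% after LPS alone and 49.2 ± 1.18% after heroin alone. Gria3 made up 17.2 ± 2.44% in Saline-Saline and 22.7 ± 2.19% in LPS-Heroin, with 19.9 ± 2.91% after LPS alone and 19.7 ± 2.17% after heroin alone. In the SA groups Gria2 took 46.2 ± 3.02% in Saline-SA and 47.6 ± 0.805% in Heroin-SA, and Gria3 22.2 ± 1.43% and 22.5 ± 4.17%. These shares are descriptions and were not tested.

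The ratio of Gria2 to the sum of Gria1, Gria3 and Gria4 was 0.975 ± 0.0584 (SD, n = 4) in Saline-Saline, with 0.984 ± 0.0690 after LPS alone and 0.969 ± 0.0465 after heroin alone. In LPS-Heroin it was 0.895 ± 0.0205. The 4 LPS-Heroin libraries ran from 0.868 to 0.912 and thus reached into the range of Saline-Saline, whose lowest library was at 0.888. The ratio was 0.864 ± 0.0995 in Saline-SA and 0.910 ± 0.0294 in Heroin-SA. It concerns RNA in bulk tissue and does not count receptors with or without GluA2.

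Among the kainate subunits, Grik5 supplied the largest share in every group, with 54.8 ± 2.51% (SD, n = 4) of their summed FPKM in Saline-Saline and 61.6 ± 3.57% in Heroin-SA. Grik2 supplied 19.0 ± 1.77% in Saline-Saline and 24.4 ± 3.29% in Saline-SA, and Grik3 9.39 ± 0.534% and 4.33 ± 0.635% in the same groups. Summed AMPA subunit FPKM was 239 ± 11.04 in Saline-Saline and 208 ± 20.4 in Saline-SA, and summed kainate subunit FPKM was 100.1 ± 7.46 and 131 ± 4.76. The quotient of these sums was 2.40 ± 0.156 in Saline-Saline and 1.59 ± 0.134 in Saline-SA.

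**Figure D2:**
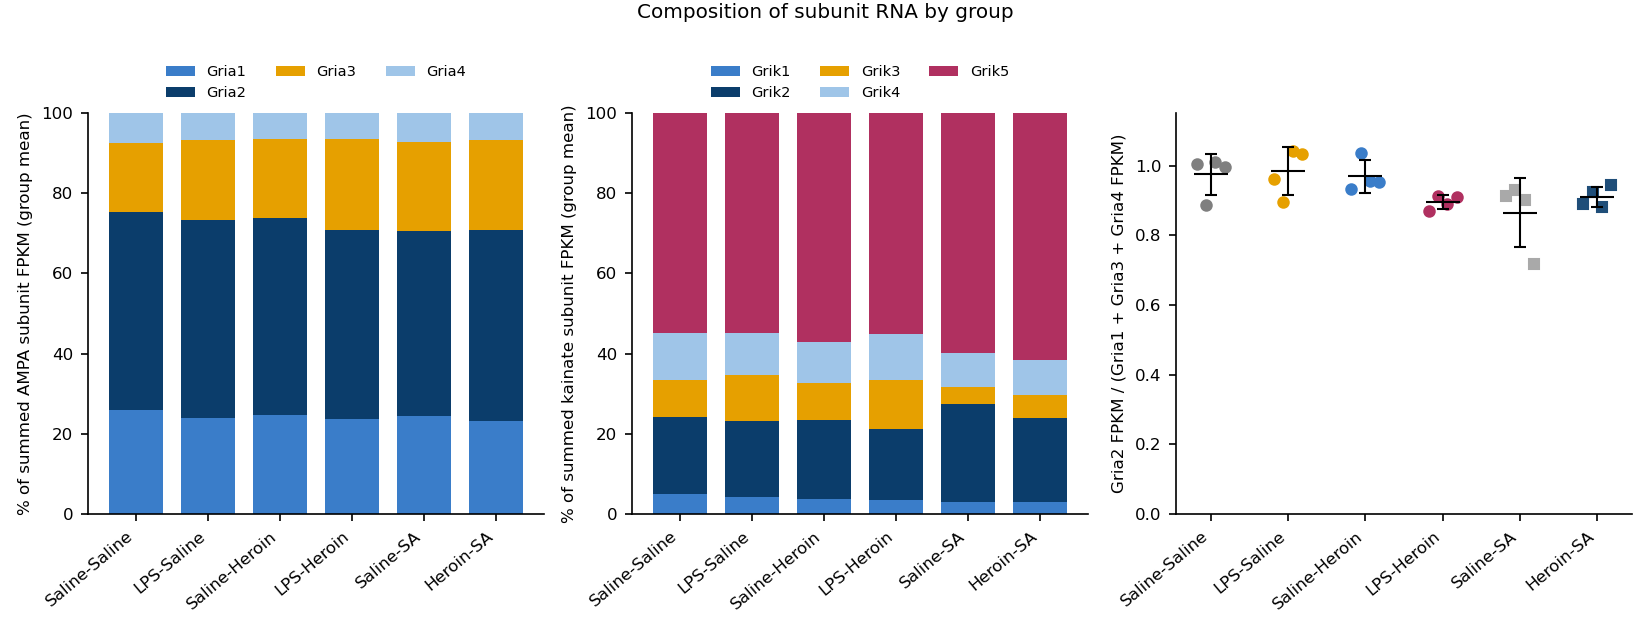
Left and middle, mean share (%) of each subunit in the summed AMPA and kainate subunit FPKM of the 6 groups; right, Gria2 over the sum of Gria1, Gria3 and Gria4, with points for libraries and bars for mean and SD (n = 4). The share of Gria3 went from 17.2% in Saline-Saline to 22.7% in LPS-Heroin, and the mean share of Grik5 in kainate subunit FPKM ran from 54.8 to 61.6%.

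Whether a history of LPS, injected heroin, or both changed the subunits was asked first against Saline-Saline. In each comparison limma was fitted on log2(FPKM + 0.1) over all genes that averaged 0.5 FPKM or more, and a gene was called at an unadjusted p of at most 0.05 with a change of at least 1.3-fold. Fold changes are on that log2 scale. Among the injected groups and in Heroin-SA against Saline-SA, 0 genes reached an adjusted p under 0.05 in these limma fits or by limma-voom. The calls thus rest on unadjusted p-values. Per comparison of a pair of groups, 637 to 1725 genes had an unadjusted p under 0.05 by limma. The lowest counts were 637 of 15121 genes in LPS-Heroin against Saline-Heroin and 693 of 15069 in LPS-Heroin against LPS-Saline. Both were below a share of 0.05, which is reached on average with no differences at all. All 3 comparisons with Saline-Saline share those 4 control libraries.

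LPS-Heroin differed from Saline-Saline in 2 of the 9 members, Gria3 and Grik3, both higher, where 5.43% of the 15134 genes tested were called. The median log2 fold change was 0.09 over the members and 0.00059 over all genes tested. Gria3 read 34.6, 43.3, 39.9998 and 46.0 FPKM in the Saline-Saline libraries and 75.6, 64.3, 55.4 and 55.5 FPKM in the LPS-Heroin libraries. Every LPS-Heroin library was thus above every Saline-Saline library, a separation found in 6.86% of genes tested. Gria3 had a log2 fold change of 0.61 ± 0.12 (SE; 95% interval 0.34 to 0.88), with an adjusted p of 0.165 by limma. Unadjusted, p was 0.000687 by limma and 0.0286 in the exact two-sided permutation test, the smallest that 4 against 4 allows.

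Grik3 read 9.79, 9.21, 9.79 and 8.74 FPKM in Saline-Saline and 15.2, 17.4, 9.63 and 11.5 FPKM in LPS-Heroin. LPS-Heroin replicate 3 lay within the Saline-Saline range and the other 3 libraries above it. For Grik3 the log2 fold change was 0.48 ± 0.17 (SE; 0.09 to 0.86), with p = 0.0207 and adjusted p = 0.339 by limma, and the exact permutation p was 0.0857. Without LPS-Heroin replicate 1 the log2 fold change of Grik3 was 0.41 and without replicate 2 it was 0.34, and in either case the call was lost. Gria3 kept its call without each of the 8 libraries in turn, with log2 fold changes from 0.52 to 0.67.

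The other 7 members were not called in LPS-Heroin against Saline-Saline. Gria2 had a log2 fold change of 0.14 (95% interval -0.03 to 0.31), Grik5 of 0.14 (-0.04 to 0.32) and Gria1 of 0.06 (-0.13 to 0.26). Gria4 stood at -0.01 (-0.31 to 0.29), Grik2 at 0.03 (-0.21 to 0.28) and Grik4 at 0.09 (-0.23 to 0.41). For Grik1 the interval, -0.80 to 0.10 around -0.35, held both 0 and falls of over 1.3-fold, and without Saline-Saline replicate 3 Grik1 was called, at -0.49.

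Markers listed for cortical glutamatergic neurons and for septum and ventral forebrain differed in this comparison too, where 5.43% of all genes tested were called. Whether their RNA came from inside or outside the NAc was not tested. Of the 9 cortical glutamatergic markers measured, 7 were called higher in LPS-Heroin, with a median log2 fold change of 1.05, and of the 9 septal and ventral forebrain markers 5 were called lower, with a median of -1.08. The cortical markers summed to 214 to 631 FPKM in Saline-Saline and 676 to 910.4 FPKM in LPS-Heroin, and the septal and ventral forebrain markers to 65.2 to 151 FPKM and 29.6 to 58.8 FPKM. None of the 12 markers of medium spiny neurons was called. The vesicular glutamate transporter Slc17a7, a marker of cortical projection neurons, averaged 158 ± 79.0 FPKM (SD, n = 4) in Saline-Saline and 333 ± 39.6 FPKM in LPS-Heroin. Slc17a7 and Cck, which averaged 368 FPKM in LPS-Heroin, made up most of the mean cortical sum there, 819 FPKM. Over the injection libraries, Gria3 had Pearson r = 0.821 with the mean log2 level of the cortical markers and -0.818 with that of the septal ones. Grik3 had 0.319 and -0.395. In the SA libraries the values were 0.818 and -0.755 for Gria3 and 0.227 and -0.139 for Grik3. These r values were taken without centring the groups, so differences between groups enter them. The part of these markers in the Gria3 and Grik3 differences was not tested.

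**Figure D3:**
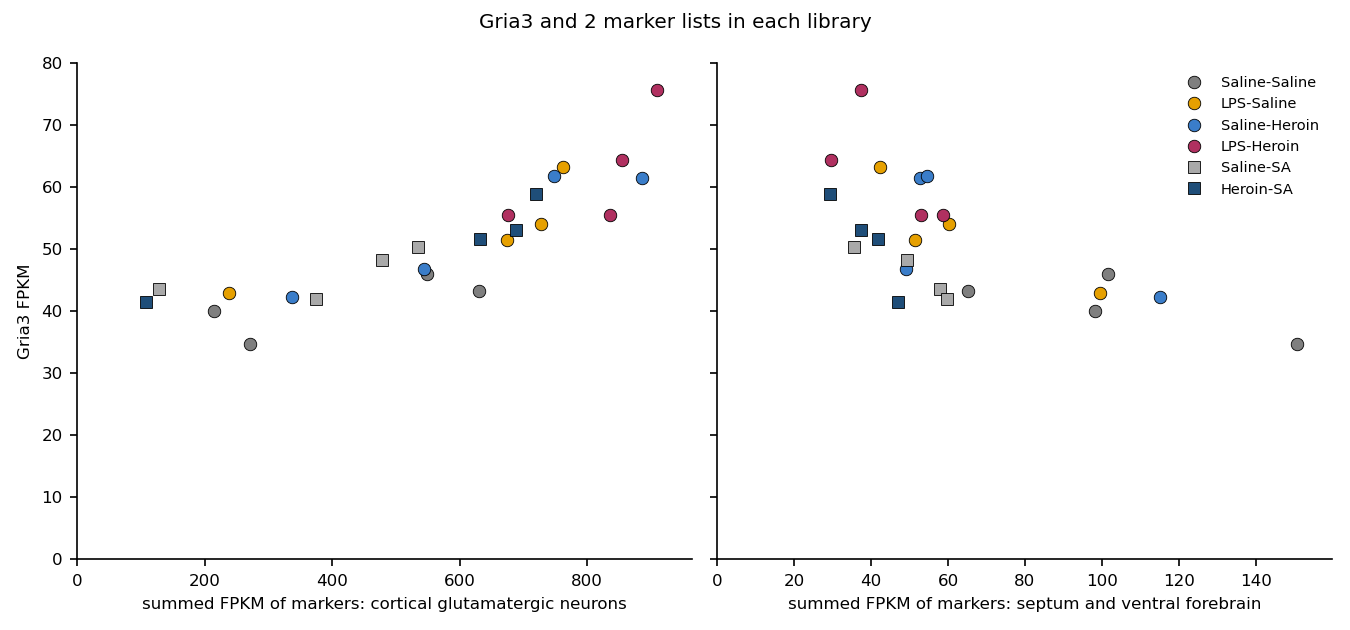
Gria3 FPKM (y axis) against the summed FPKM of 9 cortical glutamatergic markers (left) and of 9 septal and ventral forebrain markers (right) in each of the 24 libraries, coloured by group. The LPS-Heroin libraries had cortical sums from 676 to 910.4 and Gria3 from 55.4 to 75.6 FPKM, while the Saline-Saline libraries had cortical sums from 214 to 631 and Gria3 from 34.6 to 46.0 FPKM. Cck and Slc17a7 made up most of the mean cortical sum in both of these groups.

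After LPS alone, 0 of the 9 members were called in LPS-Saline against Saline-Saline, against 2.37% of genes tested. Limma-voom on the reads recovered from FPKM also called 0. At an unadjusted p of at most 0.05 without the fold limit, Gria3 and Gria2 passed, where 1002 of 15119 genes tested did. Gria3 read 63.2, 54.0, 42.9 and 51.5 FPKM in LPS-Saline, so 3 of 4 libraries were above the highest Saline-Saline library and the groups overlapped. Its log2 fold change was 0.36 ± 0.13 (SE), with unadjusted p = 0.0188 and adjusted p = 0.717 by limma, and an exact permutation p of 0.0857.

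Gria2 read 121, 106, 126 and 119.8 FPKM in Saline-Saline and 135, 122, 136 and 135 FPKM in LPS-Saline. Its log2 fold change of 0.16 ± 0.07 (SE) had unadjusted p = 0.0482 and adjusted p = 0.746 by limma, and an exact permutation p of 0.0571. Grik3 in LPS-Saline was the most scattered member of that group, at 11.8, 16.01, 13.9 and 6.66 FPKM, with 3 libraries above and 1 below the whole Saline-Saline range. Its log2 fold change was 0.29 (95% interval -0.24 to 0.82), and without LPS-Saline replicate 4 Grik3 stood at 0.55 and was called. No member had groups without overlap, against 4.11% of genes tested.

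After injected heroin alone, 0 of 9 members were called in Saline-Heroin against Saline-Saline by limma or by limma-voom, against 3.07% of genes tested, and none had groups without overlap, against 3.39%. Gria3 alone passed the unadjusted p without the fold limit. It read 61.5, 42.3, 61.8 and 46.8 FPKM in Saline-Heroin, with replicates 1 and 3 above the Saline-Saline range and replicates 2 and 4 within or just above it. Gria3 had a log2 fold change of 0.36 ± 0.14 (SE), with unadjusted p = 0.0312 and adjusted p = 0.750 by limma, and an exact permutation p of 0.114. The cortical marker sums of Saline-Heroin replicates 1 to 4 were 886, 338, 749 and 544 FPKM. Their part in the Gria3 values was not tested. Grik1 read 2.94, 6.30, 2.25 and 4.36 FPKM, and its interval ran from -1.10 to 0.32.

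Grik5, which needs a partner from GluK1 to GluK3, read 50.2, 53.3, 62.6 and 53.7 FPKM in Saline-Saline and 63.4, 56.0, 60.4 and 64.8 FPKM in Saline-Heroin. The log2 fold change of Grik5 was 0.16 (95% interval -0.02 to 0.34), with an adjusted p of 0.751 by limma.

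**Figure D4:**
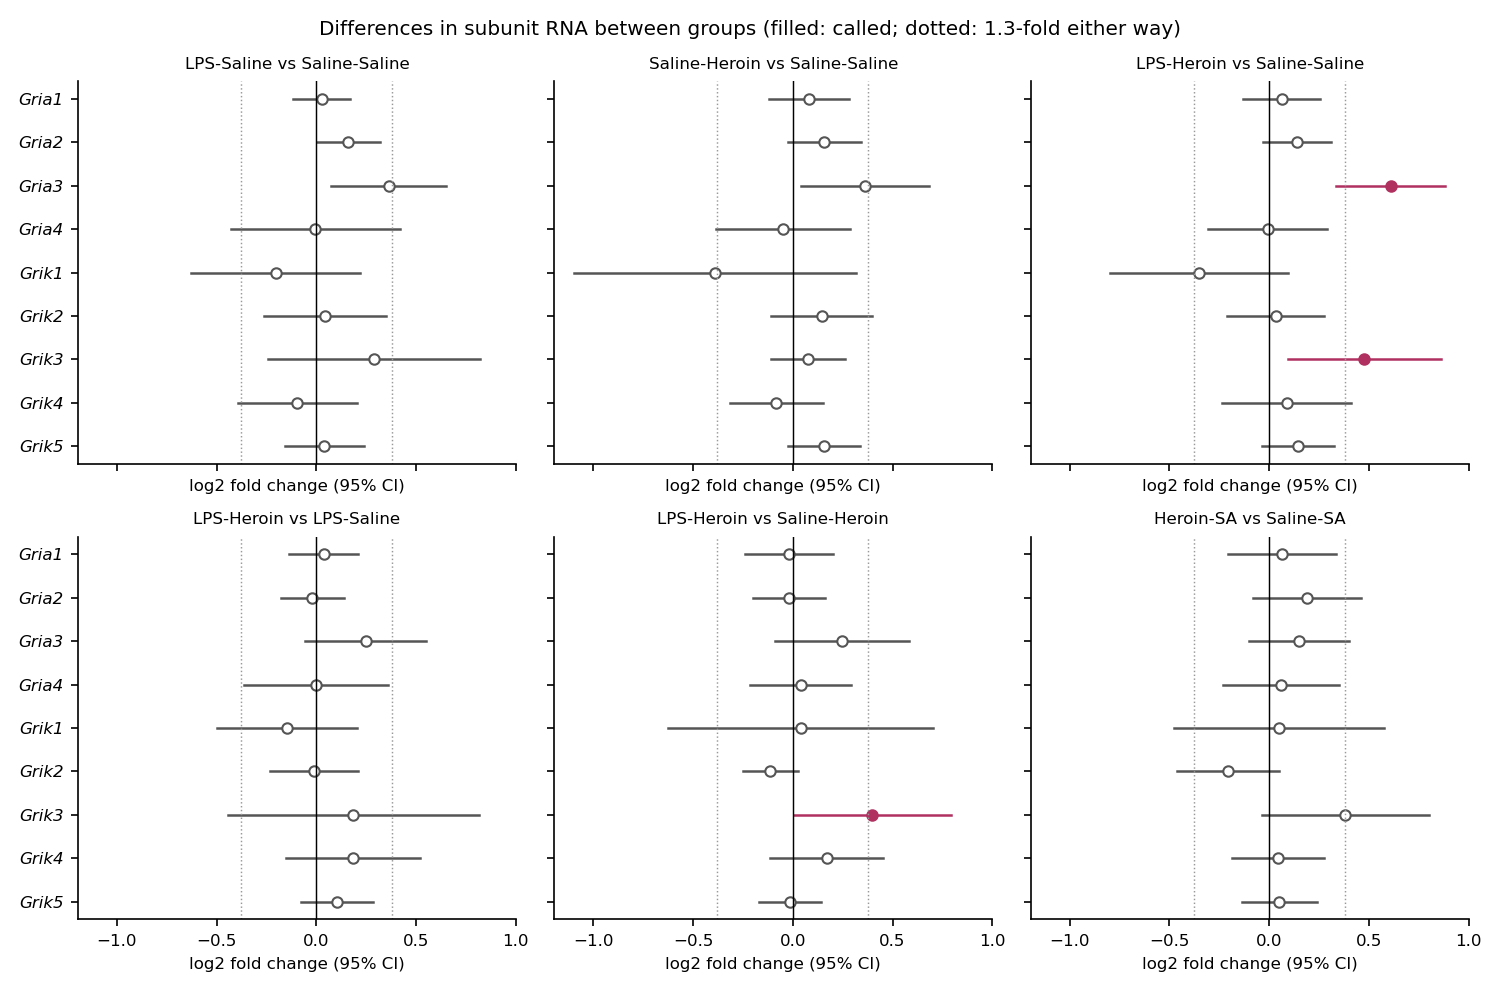
Log2 fold change and 95% interval (x axis) of each subunit gene (y axis) in 6 comparisons; filled points are called and dotted lines mark a 1.3-fold change. Gria3 and Grik3 in LPS-Heroin against Saline-Saline and Grik3 in LPS-Heroin against Saline-Heroin are the 3 filled points, and the other intervals mostly span 0.

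LPS-Heroin was next compared with each single treatment, which gives the heroin difference after LPS and the LPS difference under heroin. Against LPS-Saline, 0 of 9 members were called by limma or by limma-voom, where 2.29% of genes tested were. Without the fold limit 0 passed the unadjusted p, where 693 of 15069 genes did, and 0 had groups without overlap, where 2.58% did. Gria3 had a log2 fold change of 0.25 (95% interval -0.06 to 0.55) and Grik3 of 0.19 (-0.44 to 0.82).

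Against Saline-Heroin, 1 of 9 members was called, Grik3, where 2.2% of genes tested were called. Grik3 read 11.03, 9.35, 9.44 and 9.85 FPKM in Saline-Heroin, so that 3 of the 4 LPS-Heroin libraries were higher than all of these and replicate 3 was among them. Its log2 fold change was 0.40 ± 0.17 (SE; 0.01 to 0.79), with unadjusted p = 0.0467 and adjusted p = 1.00 by limma, and an exact permutation p of 0.0857. The call was lost without Saline-Heroin replicate 2, 3 or 4 or LPS-Heroin replicate 1 or 2, and Grik3 then had log2 fold changes from 0.26 to 0.40. Grik2, by contrast, had groups without overlap, where 2.37% of genes did: it read 22.2, 20.3, 21.7 and 19.7 FPKM in Saline-Heroin and 19.1, 19.3, 19.7 and 19.5 FPKM in LPS-Heroin. The lowest Saline-Heroin library, at 19.735 FPKM, was barely above the highest LPS-Heroin library, at 19.712 FPKM. The coefficient of variation of Grik2 in LPS-Heroin, 1.36%, was the lowest of any member in any group. The difference of Grik2 was small, with a log2 fold change of -0.11 (95% interval -0.25 to 0.02), and was not called. Its exact permutation p was 0.0286.

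Fitted over all 16 injection libraries, the main effect of LPS called 0 of 9 members, against 1.77% of genes tested, and that of heroin 0 of 9, against 2.46%. Limma-voom gave the same counts of 0. With no fold limit, Gria3 passed the unadjusted p for both, with log2 effects of 0.30 ± 0.10 (SE) for LPS and 0.30 ± 0.10 for heroin. Of all 15113 genes tested, 1008 passed for LPS and 1226 for heroin. The adjusted p of Gria3 was 0.708 and 0.549 by limma. The cortical markers had median log2 effects of 0.50 for LPS and 0.51 for heroin, with 0 and 2 of 9 called higher, and the septal and ventral forebrain markers -0.53 and -0.47, with 1 and 3 of 9 called lower; their part in the Gria3 effects was not tested. Grik3 passed for LPS alone, with 0.35 ± 0.16 and adjusted p = 0.733 by limma, and Grik5 for heroin alone, with 0.13 ± 0.06 and adjusted p = 0.597; whether these effects of LPS and heroin differ from each other was not tested. The interaction, which asks whether heroin acted differently after LPS, called 0 of 9 members by limma and by limma-voom, against 2.31% of genes tested. Without the fold limit 0 members passed, against 607 of 15113 genes. For Gria3 the interaction was -0.11 (95% interval -0.56 to 0.33), for Gria2 -0.18 (-0.41 to 0.05) and for Grik3 0.11 (-0.56 to 0.77).

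Grik3 differed among groups in its scatter as well as its level. Its coefficient of variation was 33.1% in LPS-Saline, 26.2% in LPS-Heroin and 26.0% in Heroin-SA, and 5.44% in Saline-Saline, 7.83% in Saline-Heroin and 13.4% in Saline-SA. The lowest library of the injection experiment, at 6.66 FPKM, and the highest, at 17.4 FPKM, were both from rats given LPS. This difference in spread was not tested.

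Self-administered heroin was compared with self-administered saline within the SA experiment. Of the 9 members, 0 were called in Heroin-SA against Saline-SA by limma or by limma-voom, against 5.45% of genes tested. Without the fold limit 0 passed the unadjusted p, against 1725 of 15024 genes, and 0 had groups without overlap, against 6.8%. Grik3 came nearest. It read 6.50, 5.48, 4.69 and 5.87 FPKM in Saline-SA and 6.41, 10.1, 5.63 and 7.89 FPKM in Heroin-SA, so that replicates 2 and 4 were above all Saline-SA libraries. Grik3 had a log2 fold change of 0.38 ± 0.19 (SE; -0.04 to 0.80), with an adjusted p of 0.473 by limma. Without Heroin-SA replicate 3 Grik3 stood at 0.51 and was called.

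Grik2 was not called in the SA experiment, at 29.5, 30.2, 39.8 and 28.4 FPKM in Saline-SA and 25.5, 26.6, 27.3 and 30.4 FPKM in Heroin-SA. Its log2 fold change was -0.21 (95% interval -0.46 to 0.05). Gria3 stood at 0.15 (-0.10 to 0.40) here, with 50.3, 48.2, 43.6 and 41.9 FPKM in Saline-SA and 53.0, 51.7, 58.9 and 41.5 FPKM in Heroin-SA. The Heroin-SA library with the lowest Gria3, replicate 4, had a cortical marker sum of 108 FPKM, and the other 3 had sums from 633 to 719.7 FPKM. In Saline-SA the cortical sums ran from 128 to 536 FPKM, with Gria3 from 41.9 to 50.3 FPKM. The part of these markers in the Gria3 values was not tested.

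The difference between the effects of self-administered and injected heroin called 0 of 9 members by limma and by limma-voom, against 4.38% of genes tested. At an unadjusted p of at most 0.05 alone, the difference called 0 members, against 993 of 15151 genes. It came closest for Grik2, at -0.35 ± 0.17 (SE; 95% interval -0.71 to 0.00036), with adjusted p = 0.763 by limma. Without any 1 of 5 libraries, Saline-Saline replicate 3, Saline-Heroin replicate 4, Saline-SA replicate 1 or 4 or Heroin-SA replicate 4, Grik2 was called. For Gria3 the difference was -0.21 (-0.62 to 0.19), and Grik3 was called without Heroin-SA replicate 3.

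Among the comparisons made, the subunits with the largest log2 fold changes were found between the experiments. After these values had been seen, Saline-SA was set against Saline-Saline, the drug-free groups. Surgery, housing, light cycle, route, the intraperitoneal injections, lever sessions, the locomotor test and time of death differed between them. These cannot be told apart from each other. By the same rule 3 of 9 members were called, Grik2 and Grik5 higher and Grik3 lower in Saline-SA, where 22.8% of genes tested were called. With Gria1, 4 of 9 had an adjusted p under 0.05 by limma, where 23.7% of genes did, and the same 4 had groups without overlap, where 28.3% did.

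The kainate subunits went in opposite directions here. Grik2 averaged 19.2 ± 3.24 FPKM (SD, n = 4) in Saline-Saline, with libraries at 16.9, 19.3, 23.7 and 16.7, and 31.97 ± 5.27 FPKM in Saline-SA, and its log2 fold change was 0.74 ± 0.14 (SE; adjusted p = 0.00701 by limma). Grik5 averaged 54.9 ± 5.34 FPKM and then 78.1 ± 3.55 FPKM, with libraries at 83.1, 77.1, 77.6 and 74.6 in Saline-SA, and changed by 0.51 ± 0.08 (adjusted p = 0.00251). Grik3 averaged 9.38 ± 0.511 FPKM and then 5.64 ± 0.756 FPKM and fell by 0.73 on the log2 scale (SE 0.11, adjusted p = 0.00264). Grik1 and Grik4 were not called, at -0.40 (95% interval -0.92 to 0.11) and -0.07 (-0.30 to 0.15).

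Of the AMPA subunits, Gria1 read 67.0, 56.4, 64.8 and 61.1 FPKM in Saline-Saline and 51.4, 50.2, 53.4 and 47.3 FPKM in Saline-SA. It fell by 0.30 on the log2 scale (SE 0.07, adjusted p = 0.0167 by limma), which is short of 1.3-fold. Gria2 was not called, at -0.30 (95% interval -0.57 to -0.03), with overlapping groups and Saline-SA replicate 4 at 74.2 FPKM. Gria4 stood at -0.27 (-0.60 to 0.07) and Gria3 at 0.17 (-0.05 to 0.40).

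**Figure D5:**
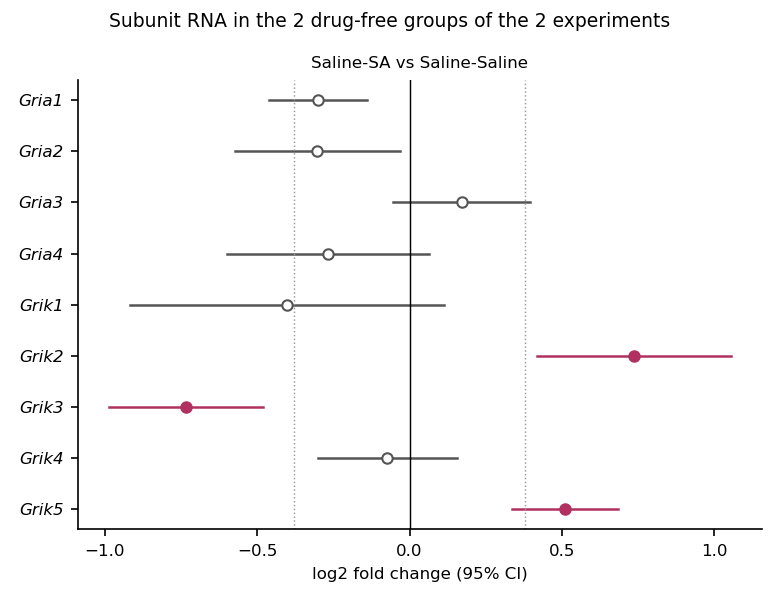
Log2 fold change and 95% interval (x axis) of each subunit gene (y axis) in Saline-SA against Saline-Saline; filled points are called and dotted lines mark a 1.3-fold change. Grik2 (0.74) and Grik5 (0.51) lie to the right and Grik3 (-0.73) to the left, with intervals clear of 0.

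Across all libraries the SA and injection experiments did not overlap for Grik2, at 25.5 to 39.8 FPKM in 8 SA libraries and 16.2 to 23.7 FPKM in 16 injection libraries, nor for Grik5, at 69.6 to 88.7 and 50.2 to 66.1 FPKM. They overlapped for the other 7 members. The share of all genes that separate the experiments in this way was not computed. Between the drug-free groups, 28.3% of genes tested had groups without overlap. Markers differed between the drug-free groups too, where 22.8% of all genes tested were called. From the remaining lists, Gpr17, Olig2 and Pdgfra (oligodendrocyte precursors), Aqp4 and Slc1a2 (astrocytes) and Cx3cr1 and Itgam (microglia) were called lower in Saline-SA. So were Rorb (cortex) and Nos1 (interneurons), while Cldn5 and Flt1 (endothelium) and Kcne2 (choroid plexus) were called higher. Of 12 markers of medium spiny neurons 7 were called higher in Saline-SA, with a median log2 fold change of 0.53, and their sum was 1259 to 2545 FPKM in Saline-Saline and 1952 to 3343 FPKM in Saline-SA. Of 8 oligodendrocyte markers 6 were called lower, with a median of -0.45, and of 9 septal and ventral forebrain markers 2, with a median of -0.85. The part of these markers, and of the mitochondrial share, in the subunit differences was not tested. Without any 1 of the 8 libraries the calls of Grik2, Grik3 and Grik5 held, Gria4 was called without Saline-Saline replicate 4 (-0.40) and Grik1 without Saline-Saline replicate 3 or Saline-SA replicate 4, with -0.55 as the larger of those changes.

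The 250 bases before the start of the 3 kainate genes that were called between the drug-free groups are shown to set their start regions side by side. They are RefSeq sequences of the GRCr8 build, not the rn6 build of the measurements, and 6 of the 9 members had an entry in that table. Capitals mark GGGCGG, the core of the GC box bound by Sp-family factors, or its reverse complement CCGCCC; overlaps were allowed. Grik2 (chr20:54415284-54415533, minus strand), Grik3 (chr5:143052192-143052441, plus strand) and Grik5 (chr1:89794910-89795159, minus strand) read, 5′ to 3′:
Grik2: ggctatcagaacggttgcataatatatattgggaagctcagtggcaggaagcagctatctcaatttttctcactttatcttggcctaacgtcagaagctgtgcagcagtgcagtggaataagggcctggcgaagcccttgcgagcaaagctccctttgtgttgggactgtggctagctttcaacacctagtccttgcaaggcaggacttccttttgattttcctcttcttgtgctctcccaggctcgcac
Grik3: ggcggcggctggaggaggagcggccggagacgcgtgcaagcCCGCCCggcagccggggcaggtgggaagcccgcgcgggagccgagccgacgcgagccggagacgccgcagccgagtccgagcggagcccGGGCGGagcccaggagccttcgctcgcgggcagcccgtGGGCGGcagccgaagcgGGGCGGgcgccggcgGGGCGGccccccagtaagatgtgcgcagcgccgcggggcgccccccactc
Grik5: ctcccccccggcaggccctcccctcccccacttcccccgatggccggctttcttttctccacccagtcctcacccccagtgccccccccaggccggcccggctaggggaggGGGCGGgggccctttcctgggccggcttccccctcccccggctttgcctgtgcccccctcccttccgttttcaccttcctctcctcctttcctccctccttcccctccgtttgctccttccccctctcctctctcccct

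The GC content of these windows was 49.6% for Grik2, 81.6% for Grik3 and 70.8% for Grik5, and the median over 33469 RefSeq promoters was 51.2%. GGGCGG on either strand occurred 5 times in the Grik3 window, 1 time in that of Grik5 and not at all in that of Grik2. At least 1 match was present in 30.5% and 5 or more in 1.72% of all windows. Gria4, Grik1 and Grik4, the other members with an entry, had no match, and TATAAA was in none of the 6 windows and in 12.9% of all. A match describes the letters and not binding.

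Proteins that assemble with these subunits or move them were read from lists of auxiliary subunits, assembly and anchoring factors, extracellular partners, editing enzymes, delta receptors and vesicular glutamate transporters, with 44 of 47 listed genes tested. In LPS-Heroin against Saline-Saline, 7 were called higher and 1 lower, where 5.43% of all genes tested were called, and the median log2 fold change of the 44 was 0.09. The 5 with the smallest p were C1ql3, Slc17a7, Olfm1, Nptx1 and Frrs1l, all higher. C1ql3, which encodes a secreted synaptic protein, went from 22.3 ± 8.36 FPKM (SD, n = 4) to 57.7 ± 24.01 FPKM. Nptx1, a pentraxin that clusters AMPA receptors, went from 37.9 ± 13.4 to 63.0 ± 6.54 FPKM, and Olfm1, a secreted AMPA receptor partner, from 127 ± 39.7 to 199 ± 22.3 FPKM. The adjusted p of these 3 ranged from 0.231 to 0.270 by limma. The extracellular partners held 4 of the 7 genes called higher. Cortical markers were higher in the same comparison, with 7 of 9 called and a median of 1.05, Slc17a7 is counted in both lists, and the part of these markers in the partner genes was not tested.

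Frrs1l, which takes part in AMPA receptor assembly in the endoplasmic reticulum, was called in more comparisons than any other gene of the lists. Its level was 27.0 ± 2.90 FPKM (SD, n = 4) in Saline-Saline and 36.5 ± 6.39 FPKM in LPS-Heroin, with 37.1 ± 2.72 FPKM after LPS alone and 33.6 ± 5.76 FPKM after heroin alone. It had 8.70 ± 1.58 FPKM in Saline-SA and 18.5 ± 5.69 in Heroin-SA. Its log2 fold change was 0.46 ± 0.09 (SE) in LPS-Saline against Saline-Saline, 0.42 ± 0.13 in LPS-Heroin against Saline-Saline and 1.05 ± 0.23 in Heroin-SA against Saline-SA, with adjusted p of 0.539, 0.276 and 0.255 by limma. The self-administered less injected heroin effect on Frrs1l was 0.74 ± 0.28 (adjusted p = 0.718).

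Apart from Frrs1l, 1 listed gene was called in LPS-Saline against Saline-Saline, C1ql3, and 1 in Heroin-SA against Saline-SA, Adam22, a receptor for the secreted protein LGI1. In Saline-Heroin against Saline-Saline the single call was Nptxr, the neuronal pentraxin receptor, at 76.4 ± 33.9 FPKM (SD, n = 4) and then 135 ± 41.8 FPKM. The heroin main effect called 3 listed genes higher (Nptxr, Slc17a7 and Olfm1) and 1 lower (Slc17a6), and the LPS main effect, the interaction and both comparisons of LPS-Heroin with a single treatment called 0 by limma. The auxiliary subunits, TARPs, cornichons and Shisa proteins that tune channel gating, gave 1 call among 13 genes tested over all comparisons within an experiment, Cnih3 in LPS-Heroin against Saline-Saline, at 19.7 ± 9.57 and 30.5 ± 3.62 FPKM. Both kainate auxiliary genes, Neto1 and Neto2, had 0 calls in these comparisons. Over all genes, 2.37% were called in LPS-Saline and 3.07% in Saline-Heroin against Saline-Saline, 5.45% in Heroin-SA against Saline-SA and 2.46% for the heroin main effect.

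Between the drug-free groups 6 listed genes were called higher and 12 lower in Saline-SA, where 22.8% of all genes tested were called, 1283 higher and 2165 lower. The 6 higher were all AMPA auxiliary subunit genes, among them Shisa7, from 40.9 ± 5.49 to 79.8 ± 4.78 FPKM (SD, n = 4), and the cornichon gene Cnih2, from 208 ± 8.51 to 284 ± 17.5 FPKM. Among the lower were Frrs1l, Adam22, from 15.5 ± 1.30 to 7.61 ± 0.681 FPKM, and Adar, an RNA-editing enzyme gene, from 41.3 ± 1.61 to 29.2 ± 1.31 FPKM. The adjusted p of these 5 ranged from 0.000243 to 0.00245 by limma, and 2 of 13 auxiliary subunit genes, Cacng2 and Shisa6, were lower.

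The genes whose pattern was most like each member were sought among 12455 genes over the 24 libraries, each experiment centred on its own mean. Gria3 was closest to Agtpbp1, which encodes a tubulin-trimming enzyme (Pearson r = 0.923, Spearman rho 0.913), Hivep2 (0.921, 0.903) and the potassium channel gene Kcnk4 (0.897, 0.904). Gria2 was closest to Zranb2 (0.901, 0.839), Alcam and Cnksr2, and Gria1 to Nr3c2 (0.842, 0.671), the mineralocorticoid receptor gene, Fgd6 and Iqgap2. Gria4 was closest to Sema5a (0.716, 0.857), SNORA1 and Dlx6. The points share library and depth, and these figures describe likeness over the libraries without a test. Groups were not centred, so differences between groups enter them. Some pairs were uneven between experiments: Gria1 with Nr3c2 had Pearson r = 0.656 in the injection libraries and 0.979 in the SA libraries.

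Of the kainate genes, Grik5 was closest to Fn3k (Pearson r = 0.854, Spearman rho 0.852), Fbxl15 and Otud7a, and Grik3 to Prrc2b (0.835, 0.848), Itsn2 and Mgat5. Grik2 was closest to Begain (0.822, 0.676), which encodes a postsynaptic density protein, Slc9a5 and Upf1. Grik1 was closest to Pnoc (0.823, 0.797), which encodes the precursor of nociceptin, Susd2 and Elof1. Grik4 had the lowest best likeness, with Sult5a1 (0.708, 0.544), Arse and Znf740. Pearson r of Grik4 with Sult5a1 was 0.786 in the injection libraries and 0.339 in the SA libraries.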

How the data were processed

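Total RNA of the NAc was sequenced as poly(A)-selected, strand-specific libraries in 24 rats. Per the labels, the authors used fastp, HISAT2 and featureCounts with the rn6 build; versions and the strand setting of the counting are not given in the sources used here. The authors deposited FPKM per gene. FPKM divided by the worth of 1 read came out whole, within 0.1 reads, for 100% of values, and the reads so recovered gave the depth, 12312878 to 18850240 a library; they also entered limma-voom as an alternative, which called 330 to 878 genes per comparison of a pair of groups within an experiment. No libraries held identical values.

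Groups followed the labels. Limma 3.58.1 (R 4.3.3, trend) was fitted on log2(FPKM + 0.1) over genes averaging 0.5 FPKM or more, with Benjamini-Hochberg adjustment over all genes tested. Calls needed an unadjusted p of 0.05 or less and a log2 fold change of 0.378 or more in size, the limits of the study's pattern and overlap analyses; for differential expression the study used a count model and an adjusted p under 0.05. The pipeline was run on simulated counts with known changes, for LPS-Heroin against Saline-Saline only. Those counts had 1 scatter setting for all genes and no tissue differences between libraries, so the run does not cover the spread seen here. Limma p-values rest on each gene's spread within groups of these 4 libraries, drawn towards a trend over all genes tested. Fits of 4 groups pooled that spread over those groups. The permutation p-values used only the libraries of the groups compared.

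All 9 members were named. Of partner genes, the 5 called with the smallest p per comparison were named, and others, among them Nptxr, Cnih3, Neto1, Neto2, Cacng2 and Shisa6, after their values were seen; the likeness rule took the 3 highest Pearson r among genes averaging 1 FPKM or more. Shisa9, Gsg1l and Epb41l1 were not analysed here. The members and lists were chosen with earlier results of these data known.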

Additional observations from a re-analysis of the deposited data

Results flagged for a closer look

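In 23 measures over the 6 groups, 138 sets of 4 libraries were screened for a library whose gap to its nearest neighbour was large for the range of its group, and 11 stood apart; chance alone gives about 1 in 20. LPS-Saline replicate 2 had 122 FPKM of Gria2, and the others 135 to 136. Heroin-SA replicate 3 had 12.4 FPKM of Gria4, and the others 16.3 to 16.4. Saline-SA replicate 3 had 39.8 FPKM of Grik2, and the others 28.4 to 30.2.

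The rest concern shares, which move together. Gria2 made up 41.7% of AMPA subunit FPKM in Saline-SA replicate 4 (others 47.4 to 48.2%) and 47.0% in Saline-Saline replicate 2 (others 49.9 to 50.3%), and in the same libraries Gria2 over the other 3 AMPA subunits was 0.716 (others 0.900 to 0.929) and 0.888 (others 0.995 to 1.01). Gria1 made up 26.3% in LPS-Heroin replicate 4 (others 22.6 to 23.0%). Grik2 made up 24.8% of kainate subunit FPKM in Heroin-SA replicate 4 (others 19.3 to 20.2%) and 19.1% in LPS-Heroin replicate 4 (others 17.2 to 17.3%), and Grik3 9.99% in Saline-Heroin replicate 1 (others 8.96 to 9.07%). The cause of these values was not tested.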

How the results depend on the processing

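The call of Gria3 in LPS-Heroin against Saline-Saline held in 10 of 11 alternative settings (log2 fold change 0.58 to 0.61), and was lost under an adjusted p under 0.05. Under that rule the members called were 0 in LPS-Heroin against Saline-Saline and 0 in LPS-Heroin against Saline-Heroin. The single call in the latter, Grik3, also went to 0 with a pseudocount of 1, with no filter and with all 24 libraries in 1 fit; the cause was not tested. With no fold limit the members called were 2 in LPS-Saline and 1 in Saline-Heroin against Saline-Saline, 2 for the LPS main effect, 2 for the heroin main effect and 5 in Saline-SA against Saline-Saline, by construction. No call changed direction. Leaving out 1 library at a time gave 0 to 1 members called in LPS-Saline against Saline-Saline, 0 to 2 in Saline-Heroin against Saline-Saline (the second being Grik1 without Saline-Heroin replicate 2), 1 to 3 in LPS-Heroin against Saline-Saline (Grik1 being added without Saline-Saline replicate 3), 0 to 1 in LPS-Heroin against Saline-Heroin, 0 to 1 in Heroin-SA against Saline-SA, 0 to 1 for the LPS main effect, 0 to 1 for the heroin main effect and 0 to 1 for the self-administered less injected heroin effect. Gria3 was called in LPS-Saline without Saline-Saline replicate 2 or 4 or LPS-Saline replicate 3, and in Saline-Heroin without Saline-Saline or Saline-Heroin replicate 2 or 4, with log2 fold changes up to 0.46 in each. Grik3 was called for the LPS main effect without LPS-Saline replicate 4 or LPS-Heroin replicate 3, and Grik1 for the heroin main effect without Saline-Heroin replicate 2. Same-numbered libraries did not deviate together strongly (correlations -0.15 to 0.154), and the samples were treated as unpaired. Weak pairing cannot be judged from this, since libraries of different number were not correlated. With the replicate number as a block, 2 members were called in LPS-Heroin against Saline-Saline and 1 in LPS-Heroin against Saline-Heroin. That fit called 3 in Saline-SA against Saline-Saline and 0 in the rest. Alternatives of the Saline-SA against Saline-Saline comparison were chosen after seeing the data. Over all genes, Heroin-SA against Saline-SA had 78 genes at an adjusted p under 0.05 with all 24 libraries in 1 fit and 1 with a pseudocount of 1, and fits with no filter had 0 to 6 in comparisons other than Saline-SA against Saline-Saline; no member was among them. Grik1 rested on the fewest reads of the members, 105 to 334 a library.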
